A study of Mus musculus with 4 samples.

Results

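Genes of DNA replication and mitosis were compared between mesenchymal cells of mouse hind limb muscle with and without a conditional deletion of Bap1. The set holds 50 genes taken by symbol from a table of 20027 genes, 25 that act in DNA replication and 25 that act in mitosis, and every symbol was found. The cells were sorted as Sca1+, CD31-, CD45-, and Vcam1-, a gate that holds fibroadipogenic progenitors (FAPs), the fibroblast-like cells between the fibers of skeletal muscle. RNA was taken from the cells straight after the sort, without culture, and was measured by RNA-Seq in 4 libraries. All came from male mice aged 1.5 weeks, of the strain C57BL/6 in the labels and C57BL/6J in the methods. The 2 libraries labelled WT carry the genotype WT, but their titles name Prx1-Cre alone, whereas the controls of the paper are floxed and lack Cre, so whether these controls carry the driver is unclear. The 2 libraries labelled conditional knockout (cKO) came from Prx1-Cre;Bap1f/f mice, in which Cre acts in the limb mesenchyme, so deletion is not limited to FAPs and begins before birth. Each library belongs to a numbered male. The p-values below rest on the spread between these animals, but not on that of a single gene alone. With 2 animals a group, the fit draws the spread of each gene toward that of genes at a similar level.

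Chromosomes are copied once in each cell cycle and then divided in mitosis. Before copying, origins are licensed by the loading of a ring-shaped helicase, which is later activated, followed by polymerases, the sliding clamp, and the enzymes that supply nucleotides. In mitosis, Cdk1 with its cyclins drives entry, a spindle of microtubules attaches to kinetochores, a checkpoint holds the cell until attachment is complete, and the anaphase-promoting complex then releases the chromatids. Replication genes are typically transcribed around the entry into S phase by E2F factors, and mitosis genes later, often through CHR elements bound by DREAM and MuvB complexes. FAPs are largely quiescent in undisturbed adult muscle, whereas the muscle of young mice is still growing.

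Values are RPKM, that is, reads scaled to the length of the transcript in kilobases and to the library total in M reads. Depth was computed from the value held by genes without reads, taken as 0.4 read, which assumes that 1 step between low values is 1 read. It was 46.5 and 89.1 M reads in WT replicates 1 and 2, and 90.4 and 41.4 M reads in cKO replicates 1 and 2. At these depths, a member had between 19 and 12222 estimated reads in a library, with a median of 474, and 16 of the 200 member values rested on fewer than 100 reads. Genes were tested on the log2(RPKM + 1) scale with limma if they reached 1 RPKM in at least 2 libraries, and a gene was called at an adjusted p under 0.05 over all 11197 genes tested. Fold changes on this scale understate the change of genes at low levels. The median of all tested genes was itself 0.27 log2 units higher in cKO, and each member is to be read against that shift.

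The members were on the whole present at higher RPKM in the libraries labelled cKO. Of the 50 genes, 48 had a higher mean in cKO than in WT, the exceptions being Prim1 and Bub1b, and in 43 both cKO libraries lay above both WT libraries. That is 86.0% of all 50 members, 7 of which were too low to be tested, while 56.8% of all tested genes had groups placed this way. The groups overlapped for the other 7 members, Gins1, Cdc6, Pola1, Prim1, Plk1, Bub1b, and Nusap1, and 0 members had both cKO libraries below both WT libraries. The median ratio of the cKO mean to the WT mean was 1.56 over all 50 members, tested or not, with a range of 0.938 to 2.26, and 1.25 over all tested genes. In a bulk sample of sorted cells, more cells of a dividing kind and more of these RNAs per cell cannot be told apart.

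Of the members, 43 passed the filter on low values, 3 of them (Mcm10, Aurka, and Cenpe) only through their levels in cKO. Limma called 23 of these higher in cKO (53.5%) and 0 lower, against 35.9% higher and 6.48% lower over all tested genes. At an unadjusted p under 0.05, 30 members were higher and 0 lower, against 42.5% higher and 8.73% lower over all tested genes. The other 7 members, Gins1, Cdc6, Orc1, Pole, Bub1, Ttk, and Cenpf, were too low to be tested. The count depended on the libraries. Without WT replicate 1 it was 5 (11.6%), below the 21.6% of all tested genes that were then called higher, and without WT replicate 2 it was 12 (27.9%), against 21.3%. Without cKO replicates 1 and 2 it was 22 (51.2%) and 21 (48.8%), against 36.1% and 34.8%. With no filter on low values it was 10 of 50 (20%), against 17.1% of all genes. In these 5 fits 0 members were called lower, where 4.45%, 3.48%, 11.2%, 5.3%, and 2.57% of all genes tested were. It also depended on scaling. When the shift of the median gene was removed by median-ratio scaling, quantile normalization, or cyclic loess normalization, 5, 5, and 6 members were called higher (11.6%, 11.6%, and 14%) and 0 lower. Over all tested genes 14.8%, 15.9%, and 16.8% were then called higher, more than among the members, and 14.2%, 16.2%, and 15.3% lower.

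**Figure D1:**
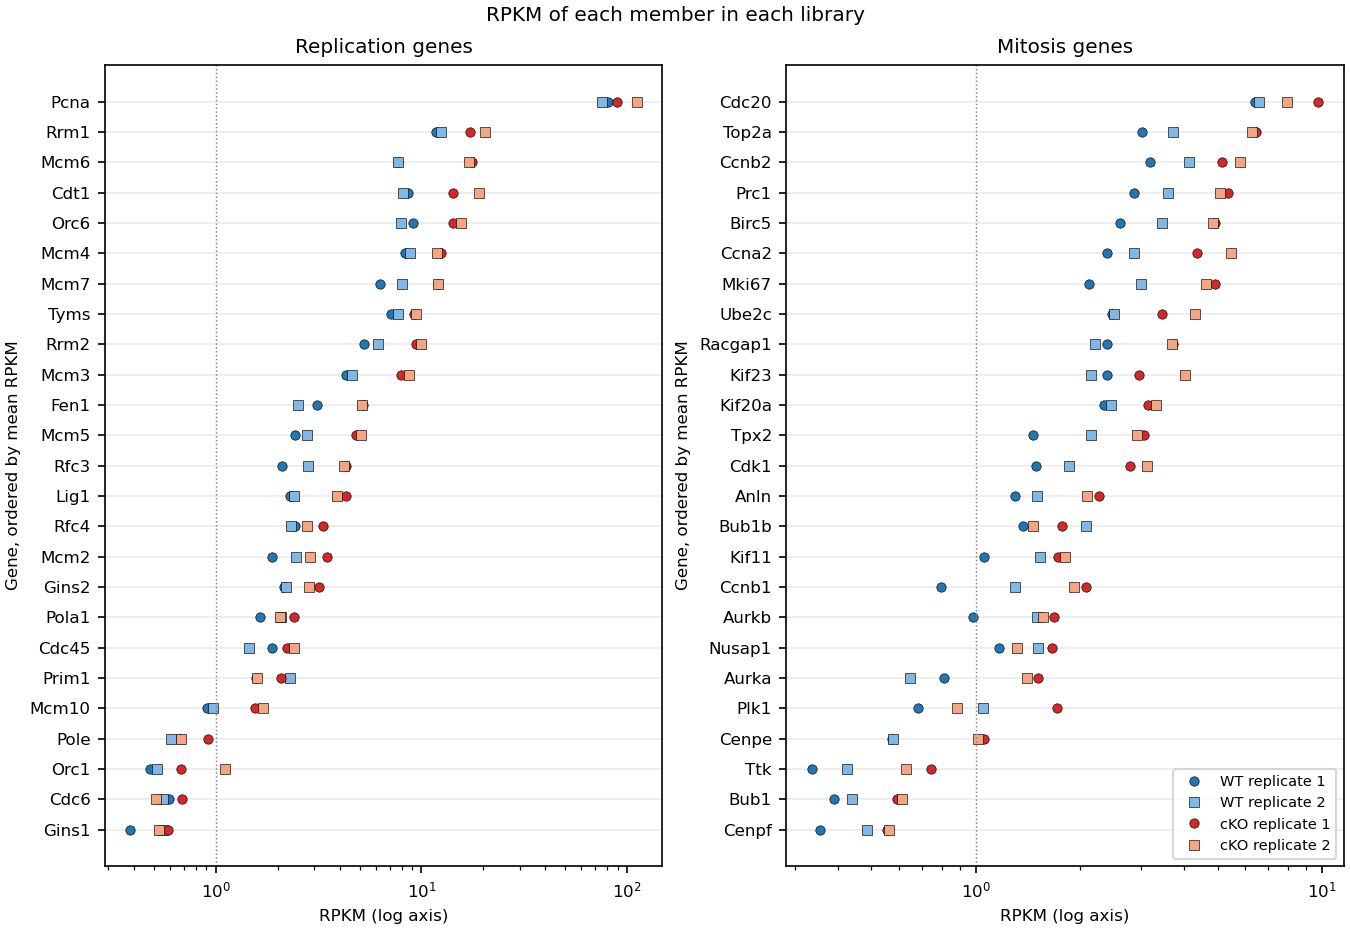
RPKM of the 25 replication genes (left) and the 25 mitosis genes (right) in each of the 4 libraries, on a log axis, with genes ordered by their mean over the libraries. Red points (cKO) lie to the right of both blue points (WT) in 43 of 50 genes, and the dotted line marks the filter at 1 RPKM.

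The libraries of a group were not alike. The highest of the 4 values was in cKO replicate 1 for 28 members, in cKO replicate 2 for 20, and in WT replicate 2 for 2. The lowest was in WT replicate 1 for 39 members, in WT replicate 2 for 10, and in cKO replicate 2 for 1. Within WT, replicate 2 was above replicate 1 in 39 members, 17 of replication and 22 of mitosis, so WT replicate 1 was the lowest library for most members and above all for mitosis genes. Within cKO, replicate 2 was above replicate 1 in 20 members. Of all 11197 genes tested, WT replicate 2 was above replicate 1 in 6444, and cKO replicate 2 above replicate 1 in 4835. Their highest value was in cKO replicate 1 for 4142 genes and in cKO replicate 2 for 4149. The lowest was in WT replicate 1 for 4054 and in WT replicate 2 for 3562.

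The MCM helicase is the ring of Mcm2 to Mcm7 that unwinds DNA at the replication fork. Of its 6 subunits, 5 were called higher (83.3%, against 35.9% of all tested genes). Mcm6 (NM_008567) lies on chromosome 1 from 128331575 to 128359705 in the RefSeq annotation of GRCm38.p6, which may not be the build of the authors. It stood at 7.65 and 7.72 RPKM in WT and at 17.7 and 17.1 RPKM in cKO. The cKO libraries lay close together and far above both WT libraries, and Mcm6 had the largest fold change among the members. The mean rose from 7.69 ± 0.0507 to 17.4 ± 0.394 RPKM (SD, n = 2 each), a log2 fold change of 1.08 with a standard error of 0.13 (limma adjusted p = 0.00117). Its call held without any single library and under each rescaling, with a log2 fold change of 0.75 to 0.78 after rescaling.

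Mcm3 stood at 4.30 and 4.60 RPKM in WT and at 7.91 and 8.65 RPKM in cKO (log2 fold change 0.77, limma adjusted p = 0.00571). Mcm5 stood at 2.44 and 2.78 RPKM in WT and at 4.82 and 5.07 RPKM in cKO (log2 fold change 0.72, limma adjusted p = 0.00873). Neither gene had overlapping groups, and both calls also held under each rescaling, but that of Mcm5 ended without WT replicate 1 (adjusted p = 0.0758). Mcm7 and Mcm4 rose too, with log2 fold changes of 0.68 and 0.47, and their calls ended without WT replicate 1 and under each rescaling, and that of Mcm4 also without WT replicate 2. Mcm2, the remaining subunit, stood at 1.88 and 2.46 RPKM in WT and at 3.48 and 2.86 RPKM in cKO. Its libraries were placed as those of the other subunits, but the interval of its log2 fold change ran from -0.01 to 0.80 (95%, limma adjusted p = 0.102). Since the subunits form a ring of equal parts in the cell, their RNA levels per length can be set side by side, and the cKO means ran from 3.17 RPKM for Mcm2 to 17.4 RPKM for Mcm6.

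The factors that license origins before the helicase is loaded gave mixed levels. Cdt1, which brings the helicase to origins, stood at 8.61 and 8.17 RPKM in WT and at 14.2 and 19.02 RPKM in cKO. The cKO libraries lay well apart from each other but both above WT, and Cdt1 (NM_026014, chromosome 8, 122568015 to 122573130) rose by a log2 fold change of 0.89 with a standard error of 0.16 (limma adjusted p = 0.00519). The call held without any single library and under each rescaling. Orc6, the smallest subunit of the origin recognition complex, stood at 9.12 and 7.98 RPKM in WT and at 14.2 and 15.6 RPKM in cKO (log2 fold change 0.74, limma adjusted p = 0.00574). It was called without any single library, but not after rescaling, where the adjusted p was 0.0622 to 0.0662.

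The other licensing factors were under the filter. Orc1, the ATPase of the origin recognition complex, stood at 0.479 and 0.517 RPKM in WT and at 0.674 and 1.11 RPKM in cKO. Cdc6, the ATPase that joins the complex to load the helicase, stood at 0.592 and 0.555 RPKM in WT and at 0.682 and 0.514 RPKM in cKO. Thus the cKO libraries lay on either side of WT for Cdc6 and above WT for Orc1, and neither was tested.

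None of the 3 tested factors of helicase activation was called. Mcm10, Gins2, and Cdc45, which turn the loaded ring into a moving helicase, had log2 fold changes of 0.44, 0.33, and 0.31 (limma adjusted p = 0.0519, 0.117, and 0.160), with groups that did not overlap. Gins1, a further subunit of the GINS complex, stood at 0.384 and 0.555 RPKM in WT and at 0.588 and 0.527 RPKM in cKO, and was not tested.

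The polymerases had a median log2 fold change of 0.13, the lowest of the replication groups. Prim1, the primase that makes the RNA primer, had a mean of 1.94 RPKM in WT and 1.83 RPKM in cKO, and a log2 fold change of -0.05 with a 95% interval of -0.49 to 0.39. Pola1, the catalytic subunit of the polymerase that extends this primer, had a log2 fold change of 0.18 with an interval of -0.21 to 0.56, and was below 0 under each rescaling. Neither was called (limma adjusted p = 0.860 and 0.424), and these intervals do not show that the levels were equal. Pole, the catalytic subunit of the leading-strand polymerase, stood at 0.672 and 0.602 RPKM in WT and at 0.911 and 0.674 RPKM in cKO, where the lower cKO library was close to the higher WT library, and was not tested.

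The clamp and its loader differed in level. Pcna, the sliding clamp, was by far the most abundant member, at 81.0 and 75.8 RPKM in WT and 89.1 and 111.9 RPKM in cKO. The groups did not overlap, but cKO replicate 1 lay closer to WT than to cKO replicate 2, and the log2 fold change of 0.35 was not called (95% interval 0.02 to 0.68, limma adjusted p = 0.0849). Of the loader, Rfc3 rose by a log2 fold change of 0.61 (limma adjusted p = 0.0223), a call that ended without WT replicate 1 (adjusted p = 0.221) and under each rescaling, and Rfc4 was not called (0.26, limma adjusted p = 0.232).

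Apart from Tyms, the genes of nucleotide supply and of the lagging strand were called higher, as were 35.9% of all tested genes. Rrm1 and Rrm2 encode the large and small subunits of ribonucleotide reductase, which makes deoxyribonucleotides. Rrm1 stood at 11.8 and 12.5 RPKM in WT and at 17.2 and 20.4 RPKM in cKO (log2 fold change 0.59, limma adjusted p = 0.0127). Rrm2 stood at 5.28 and 6.14 RPKM in WT and at 9.39 and 9.92 RPKM in cKO (log2 fold change 0.67, limma adjusted p = 0.00961). In both genes the cKO libraries were above WT, and both calls ended without WT replicate 1 (adjusted p = 0.0778 for Rrm1 and 0.0875 for Rrm2) and under each rescaling. Tyms, which makes thymidylate, was not called (log2 fold change 0.30, limma adjusted p = 0.112).

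Fen1, the nuclease that trims Okazaki fragments, rose by a log2 fold change of 0.70 (limma adjusted p = 0.0112), and Lig1, the ligase that joins them, by 0.60 (limma adjusted p = 0.0171). Without WT replicate 2 neither was called (adjusted p = 0.108 and 0.0963), and Lig1 was also not called without WT replicate 1 (0.123). Neither was called after rescaling. In sum 12 of the 21 replication genes tested were called higher (57.1%, against 35.9% of all tested genes) and 0 lower, with 14 higher and 0 lower at an unadjusted p under 0.05 (42.5% and 8.73% of all tested genes), and their median log2 fold change was 0.44 over all 25 genes. The count was 5 without WT replicate 1 (23.8%, against 21.6% of all tested genes) and 9 without WT replicate 2 (42.9%, against 21.3%). Under each rescaling it was 4 (19%, against 14.8% to 16.8%).

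**Figure D2:**
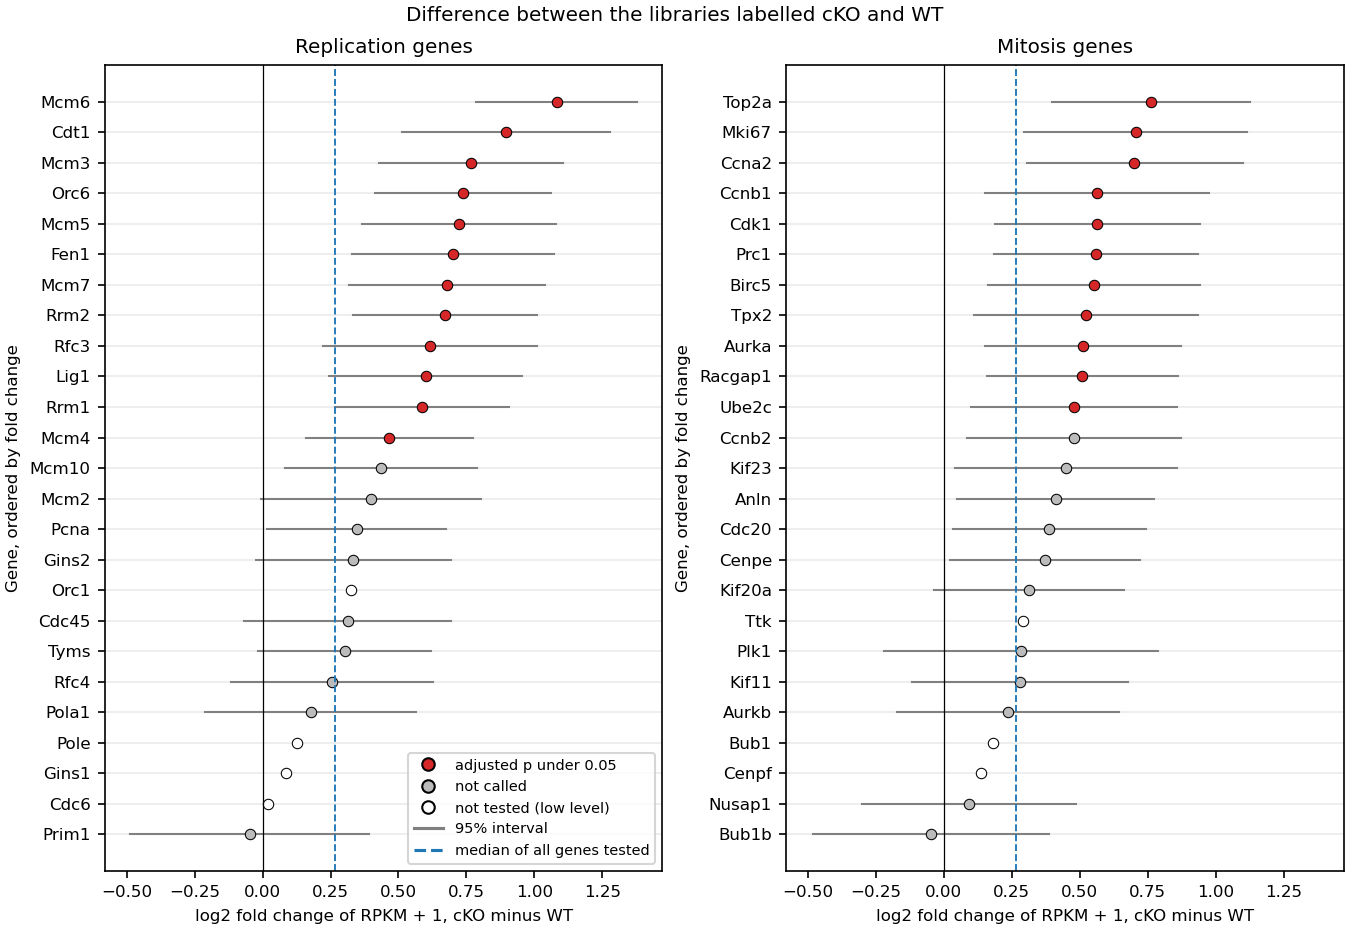
Log2 fold change of RPKM + 1, cKO minus WT, for each replication gene (left) and mitosis gene (right), with the 95% interval of limma for genes that were tested. Points to the right of the dashed line exceed the median of all tested genes, 0.27, and the 23 red points are called, all to the right of it.

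Among the mitosis genes, the proliferation marker Mki67 and the topoisomerase Top2a rose. Mki67 (NM_001081117, chromosome 7, 135689784 to 135716450), whose protein coats mitotic chromosomes and marks cycling cells, stood at 2.13 and 3.005 RPKM in WT and at 4.91 and 4.62 RPKM in cKO. Top2a (NM_011623, chromosome 11, 98992947 to 99024199), which untangles sister chromatids, stood at 3.01 and 3.71 RPKM in WT and at 6.46 and 6.29 RPKM in cKO. For both genes WT replicate 1 was the lowest library and the cKO libraries were close together. Mki67 rose by a log2 fold change of 0.70 with a standard error of 0.17 (limma adjusted p = 0.0158), and Top2a by 0.76 with a standard error of 0.16 (limma adjusted p = 0.00788). Without WT replicate 1 neither was called (adjusted p = 0.157 for Mki67 and 0.0716 for Top2a). Top2a was called under each rescaling, and Mki67 under cyclic loess normalization alone.

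Of Cdk1 and the cyclins, 3 of 4 were called higher (75%, against 35.9% of all tested genes). Cdk1 (NM_007659, chromosome 10, 69335146 to 69352912), the kinase that drives entry into mitosis, stood at 1.498 and 1.86 RPKM in WT and at 2.80 and 3.12 RPKM in cKO (log2 fold change 0.56, limma adjusted p = 0.0264). Ccna2, the cyclin of S phase and early mitosis, stood at 2.40 and 2.86 RPKM in WT and at 4.36 and 5.48 RPKM in cKO (log2 fold change 0.70, limma adjusted p = 0.0145). Ccnb1, the main mitotic cyclin, stood at 0.797 and 1.29 RPKM in WT and at 2.08 and 1.92 RPKM in cKO (log2 fold change 0.56, limma adjusted p = 0.0367). In these 3 genes WT replicate 1 was lowest and the groups did not overlap. Ccnb2, the other B-type cyclin, was not called (log2 fold change 0.48, limma adjusted p = 0.0541). None of the 3 calls was made after rescaling or without WT replicate 1, where the adjusted p was 0.103 for Ccna2, 0.228 for Cdk1, and 0.326 for Ccnb1. That of Cdk1 also ended without WT replicate 2 and without cKO replicate 2 (adjusted p = 0.0814 and 0.0588), and that of Ccnb1 without WT replicate 2 and without cKO replicate 1 (0.0552 and 0.0641).

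The anaphase-promoting complex was represented by an activator and an enzyme. Cdc20, the activator that the spindle checkpoint holds back, was the most abundant mitosis gene and stood at 6.41 and 6.59 RPKM in WT and at 9.77 and 7.95 RPKM in cKO. The groups did not overlap, but the difference was not called (log2 fold change 0.39, 95% interval 0.03 to 0.74, limma adjusted p = 0.0756). Ube2c, the ubiquitin-conjugating enzyme of the complex, rose from a mean of 2.49 to 3.88 RPKM, with an adjusted p of 0.0473 by limma that passed the threshold under neither rescaling nor the omission of any library but cKO replicate 1.

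Among mitotic kinases and the chromosomal passenger complex, Aurka and Birc5 were called higher (50% of this group, against 35.9% of all tested genes). Aurka, the kinase of the spindle poles, had a mean of 0.729 RPKM in WT and 1.46 RPKM in cKO (log2 fold change 0.51, limma adjusted p = 0.0324), the largest ratio among the mitosis genes, but from a level under the filter in WT. Birc5, the survivin subunit of the passenger complex, had means of 3.04 and 4.88 RPKM (log2 fold change 0.55, limma adjusted p = 0.0325). Birc5 was not called without any 1 of the 4 libraries (adjusted p = 0.0506 to 0.295), Aurka was called only when cKO replicate 2 was the library left out (0.0372), and neither was called after rescaling. Aurkb, the kinase of the same complex, and Plk1, a kinase that acts throughout mitosis, were not called (log2 fold changes 0.24 and 0.28, limma adjusted p = 0.308 and 0.322). In Plk1 the cKO libraries stood far apart, at 1.71 and 0.881 RPKM, with the second below WT replicate 2.

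No gene of the spindle checkpoint was called. Bub1b, a subunit of the checkpoint complex that binds Cdc20, had means of 1.73 RPKM in WT and 1.62 RPKM in cKO, with a log2 fold change of -0.05 (95% interval -0.48 to 0.39). Bub1, the checkpoint kinase at the kinetochore, stood at 0.390 and 0.440 RPKM in WT and at 0.594 and 0.615 RPKM in cKO. Ttk, the kinase that starts the signal, stood at 0.337 and 0.424 RPKM in WT and at 0.744 and 0.631 RPKM in cKO. The last 2 had cKO libraries above WT at levels too low for the test.

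Kinetochore proteins were likewise low. Cenpf stood at 0.355 and 0.487 RPKM in WT and at 0.553 and 0.564 RPKM in cKO, and was not tested. Cenpe, a motor that links kinetochores to microtubules, passed the filter through cKO and was not called (log2 fold change 0.37, limma adjusted p = 0.0807). Of the spindle proteins, Tpx2, an activator of Aurka, was called higher (log2 fold change 0.52, limma adjusted p = 0.0472), and Kif11, the motor that separates the poles, and Nusap1, a microtubule-bundling protein, were not (log2 fold changes 0.28 and 0.09). The call of Tpx2 ended without any 1 of the libraries (adjusted p = 0.0626 to 0.386) and under each rescaling, and Nusap1 was below 0 after rescaling.

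Genes of the central spindle and cytokinesis had both cKO libraries above both WT libraries in 5 of 5, a placement found in 56.8% of all tested genes. Prc1, which bundles microtubules between the separating chromosomes, stood at 2.87 and 3.60 RPKM in WT and at 5.35 and 5.09 RPKM in cKO (log2 fold change 0.56, limma adjusted p = 0.0266). Racgap1, which recruits the activator of the cleavage furrow, stood at 2.40 and 2.21 RPKM in WT and at 3.71 and 3.69 RPKM in cKO (log2 fold change 0.51, limma adjusted p = 0.0298). Racgap1 was 1 of 3 mitosis genes with WT replicate 2 as the lowest library. Both calls ended without WT replicate 1 (adjusted p = 0.245 and 0.144), without WT replicate 2 (0.0599 and 0.219), and under each rescaling. Kif23, the motor that partners Racgap1, Anln, a scaffold of the contractile ring, and Kif20a, another motor of the midzone, were not called (log2 fold changes 0.45, 0.41, and 0.31, limma adjusted p = 0.0743, 0.0669, and 0.132).

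In total 11 of the 22 mitosis genes tested were called higher (50%, against 35.9% of all tested genes) and 0 lower, and 16 were higher and 0 lower at an unadjusted p under 0.05 (42.5% and 8.73% of all tested genes). Their median log2 fold change was 0.45 over all 25 genes. The limma count was 0 without WT replicate 1, where 21.6% of all tested genes were called higher and where 3 mitosis genes were higher and 0 lower at an unadjusted p under 0.05. Without WT replicate 2 it was 3 (13.6%, against 21.3%). Under median-ratio scaling, quantile normalization, and cyclic loess normalization it was 1, 1, and 2 (4.55%, 4.55%, and 9.09%), below the 14.8%, 15.9%, and 16.8% of all tested genes.

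Replication was then set against mitosis. The median log2 fold changes of 0.44 and 0.45 and the median ratios of 1.55 and 1.56 lay close together, and 12 and 11 genes were called. The range reached further for replication, where 1.08 was the highest log2 fold change, against 0.76 for mitosis. Within a library, the mean log2(RPKM + 1) of the replication genes was 2.15 and 2.21 in WT and 2.64 and 2.65 in cKO, and that of the mitosis genes was 1.35 and 1.52 in WT and 1.86 and 1.84 in cKO. The replication mean thus stood above the mitosis mean in every library, by 0.79 and 0.68 in WT and by 0.77 and 0.81 in cKO. The groups overlapped in this difference, which was 0.05 larger in cKO than in WT with a spread between replicates of 0.06 (pooled SD, n = 2 each). With 2 libraries a group no permutation test of this difference could reach a two-sided p under 0.05, and none is given.

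**Figure D3:**
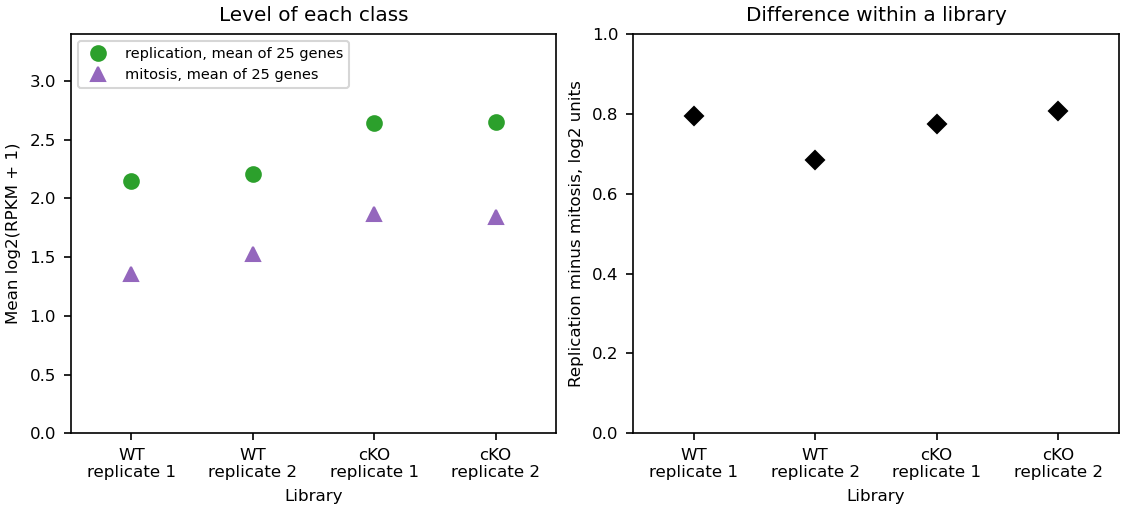
Mean log2(RPKM + 1) of the 25 replication and 25 mitosis genes in each library (left) and the difference between both means within a library (right). Both means are higher in the cKO libraries, whereas the difference lies between 0.68 and 0.81 in all 4 libraries, with no separation of the groups.

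As summed RPKM, the replication genes other than Pcna reached 92.9 and 98.1 in WT and 154 and 161 in cKO, and the mitosis genes 45.0 and 53.8 in WT and 77.5 and 76.7 in cKO. The ratio of the first sum to the second was 2.07 and 1.82 in WT and 1.99 and 2.10 in cKO, again with overlapping groups. Mki67 stood at 0.278 and 0.389 of the level of Mcm6 in WT and at 0.278 and 0.270 in cKO, where WT replicate 2 is the library that stands apart.

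**Figure D4:**
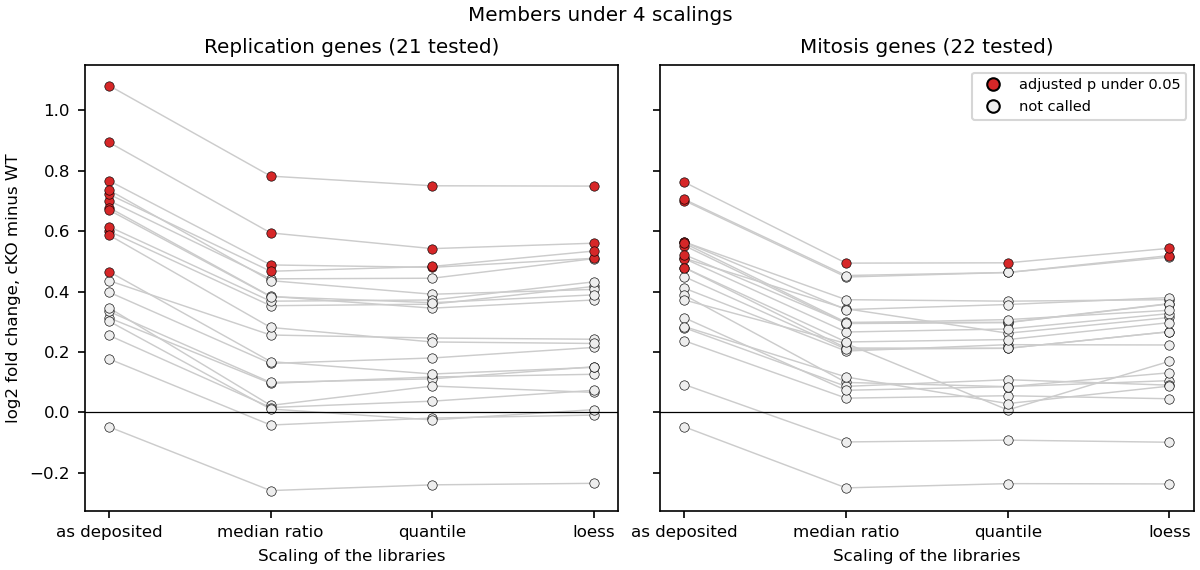
Log2 fold changes of the 43 tested members with the values as deposited and after 3 rescalings of the libraries, each line a gene and red a call at an adjusted p under 0.05. The lines drop by a similar amount when the libraries are rescaled, and Mcm6, Cdt1, Mcm3, Mcm5, and Top2a are called at every position.

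The members called in all 3 rescalings were 4 of replication (Mcm6, Cdt1, Mcm3, and Mcm5) and 1 of mitosis (Top2a). As given above, the share of members called higher after rescaling was not above that of all tested genes. After median-ratio scaling the median log2 fold change was 0.20 for replication genes and 0.21 for mitosis genes, and 7 of 50 members were below 0, all of them uncalled. Quantile and cyclic loess normalization, which cover the 43 tested members, placed 5 and 4 of them below 0, with Tyms below 0 under quantile normalization only.

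Promoters of the members were examined for the sequence elements named above. RefSeq promoters of build GRCm38.p6, from 250 bases before to 50 after a start site, were matched by symbol for 42 of 50 members, 21 of each class. E2F elements were searched as TTTCCCGC, TTTCGCGC, TTTGCCGC, and TTTGGCGC, CHR elements as TTTGAA, and CCAAT boxes as CCAAT, each on both strands. An E2F match was present in 10 of 21 replication genes (47.6%), in 1 of 21 mitosis genes (4.76%), and in 2.60% of all 27025 genes with a promoter. A CHR match was present in 3 of 21 replication genes (14.3%), in 16 of 21 mitosis genes (76.2%), and in 20.2% of all genes. CCAAT boxes were present in 15 (71.4%) and 18 (85.7%) against 41.1%. Among the 8778 tested genes with a promoter, the shares were 4.72% for E2F, 13.7% for CHR, and 42.3% for CCAAT. The E2F share of the mitosis genes and the CHR share of the replication genes were close to these. Both classes thus differ in the letters their promoters hold, and the only member with both E2F and CHR matches was Cdk1. Many matches lay near the start site given with the promoter, within 50 bases in 7 of the 10 replication genes with E2F and in 15 of the 16 mitosis genes with CHR.

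**Figure D5:**
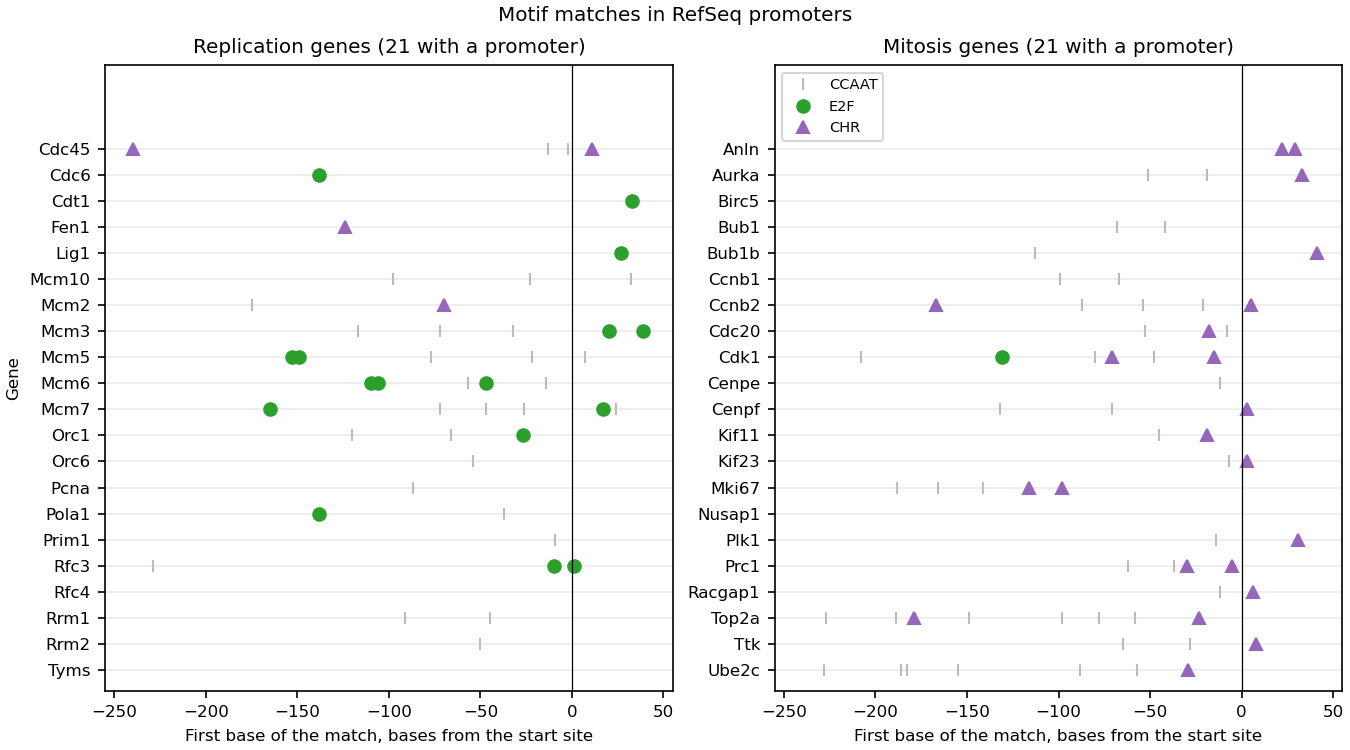
First base of each match to E2F, CHR, and CCAAT in the promoters of the 42 members found, in bases from the start site, with genes in alphabetical order and all promoters of a gene on 1 line. Green circles (E2F) are found in 10 replication genes and 1 mitosis gene, and purple triangles (CHR) in 16 mitosis genes and 3 replication genes.

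Stretches upstream of 6 start sites show these layouts in Mcm6, Mcm5, and Top2a, which were called under every rescaling, and in Cdk1, Mki67, and Cdc20. Capitals mark matches, and adjoining capitals are overlapping matches. The first pair has E2F and CCAAT matches and no CHR match. Cdk1 adds a CHR match to these (another lies beyond the end of the stretch), and the last 3 have CHR and CCAAT matches only. All are written 5′ to 3′ on the strand of the gene and end before the first annotated exon. They cover chr1:128359706-128359855 (minus strand) for Mcm6, chr8:75109339-75109467 (plus) for Mcm5, chr10:69352939-69353062 (minus) for Cdk1, chr11:99024200-99024319 (minus) for Top2a, chr7:135716459-135716579 (minus) for Mki67, and chr4:118437353-118437463 (minus) for Cdc20.
Mcm6: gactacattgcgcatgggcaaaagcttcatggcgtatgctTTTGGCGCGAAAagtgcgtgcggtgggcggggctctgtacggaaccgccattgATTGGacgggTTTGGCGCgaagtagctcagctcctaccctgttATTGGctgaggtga
Mcm5: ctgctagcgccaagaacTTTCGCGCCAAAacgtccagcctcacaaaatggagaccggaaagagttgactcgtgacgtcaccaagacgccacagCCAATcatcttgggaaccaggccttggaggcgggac
Cdk1: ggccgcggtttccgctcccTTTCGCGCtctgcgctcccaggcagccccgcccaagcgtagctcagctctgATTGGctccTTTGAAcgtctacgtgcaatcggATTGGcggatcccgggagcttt
Top2a: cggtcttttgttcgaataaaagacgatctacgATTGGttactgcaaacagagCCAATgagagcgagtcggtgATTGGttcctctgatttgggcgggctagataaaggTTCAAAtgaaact
Mki67: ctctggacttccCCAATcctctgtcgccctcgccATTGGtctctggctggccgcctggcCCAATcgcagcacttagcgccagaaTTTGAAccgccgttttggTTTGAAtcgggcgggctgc
Cdc20: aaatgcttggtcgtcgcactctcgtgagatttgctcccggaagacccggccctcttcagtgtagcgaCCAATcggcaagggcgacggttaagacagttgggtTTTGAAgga
Mcm6, the member with the largest fold change, has an overlapping pair of E2F matches on opposite strands and another downstream of it, and Mcm5 has an overlapping pair of this kind. Top2a and Cdc20 have 1 CHR match in their stretch and Mki67 has a pair. Start sites here are those of the promoters, and for Mki67, Mcm5, and Top2a the annotated gene begins 71, 41, and 10 bases upstream of that site. A match describes letters and not a bound site.

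Of the 10 replication genes with an E2F match, 7 were called higher and their median log2 fold change was 0.65. Of the 11 without a match, 4 were called and the median was 0.40. Of the 16 mitosis genes with a CHR match, 7 were called, with a median of 0.46, and of the 5 without, 2 were called, with a median of 0.37. Over all tested genes 35.9% were called higher. The groups include members too low to be tested, which could not be called. These were Cdc6 and Orc1 (E2F match), Cenpf and Ttk (CHR match), and Bub1 (no CHR match). The counts are a description and were not tested.

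Further genes of the same processes were read from lists of other genes of each process. Of 41 tested among 48 other replication genes, 9 were called higher and 1 lower (22% and 2.44%, below the 35.9% and 6.48% of all tested genes). The median log2 fold change was 0.29 over all 48, tested or not, and 2 had passed the filter only through cKO. Dnmt1, the maintenance DNA methyltransferase that follows the fork, stood at 6.14 and 6.05 RPKM in WT and at 14.4 and 15.1 RPKM in cKO (log2 fold change 1.15, limma adjusted p = 0.00106). Mcmbp, which binds MCM subunits, and Orc2, of the origin recognition complex, rose with log2 fold changes of 0.78 and 0.77 (limma adjusted p = 0.00418 and 0.00577). These 3 calls held without any single library and under each rescaling. Rpa3, the small subunit of the single-strand binding protein and named after its values were seen, was the gene called lower (log2 fold change -0.48, limma adjusted p = 0.0459), a call that ended on omission of either WT library or of cKO replicate 2 (adjusted p = 0.188, 0.184, and 0.137). With either WT library left out 6 genes of the list were higher (14.6%, against 21.6% and 21.3% of all tested genes) and 0 lower, and after rescaling 5 or 6 were higher (12.2% to 14.6%, against 14.8% to 16.8%) and 3 lower.

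Of 54 tested among 86 other mitosis genes, 14 were called higher and 0 lower (25.9% higher, below the 35.9% of all tested genes). Of these 54, 9 had passed the filter only through cKO. The median log2 fold change was 0.25 over all 86, which include 32 genes too low to be tested, whose change this scale understates. The median ratio of the cKO to the WT mean was 1.46 over the same 86 and 1.25 over all tested genes. Both cKO libraries lay above both WT libraries in 61 of the 86 (70.9%, against 56.8% of all tested genes) and below them in 4. After rescaling 4 or 5 were called higher (7.41% to 9.26%, against 14.8% to 16.8%) and 3 or 4 lower. Bub3, a checkpoint protein that holds Bub1 at the kinetochore, stood at 8.08 and 9.19 RPKM in WT and at 17.7 and 18.0 RPKM in cKO (log2 fold change 0.97, limma adjusted p = 0.00198). Mad2l1, the checkpoint protein that binds Cdc20, stood at 1.57 and 1.64 RPKM in WT and at 4.25 and 3.79 RPKM in cKO (log2 fold change 0.95, limma adjusted p = 0.00344). Shcbp1, a protein of the midbody that passed the filter only through cKO, had WT values of 0.774 and 0.776 RPKM and was called with a log2 fold change of 0.74 (limma adjusted p = 0.00742, and 0.0539 without WT replicate 2). Bub3 and Mad2l1 were named for their small p, and checkpoint genes of this list were not all called. Zwilch and Zw10 were not (log2 fold changes 0.35 and -0.33, limma adjusted p = 0.0993 and 0.212). Zw10 had both cKO libraries below both WT libraries. Bub1b, the only checkpoint gene among the members that was tested, was not called either, and differences between these genes were not tested. The count was 5 without WT replicate 1 and 4 without WT replicate 2 (9.26% and 7.41%, against 21.6% and 21.3% of all tested genes).

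Genes that act upstream were called in both directions. A list of 29 genes held G1 cyclins, E2F factors with their partners, Rb1, and DREAM subunits, and also Cdk2, Cdk4, Cdk6, Cdk7, Cdc25a, Myc, and Skp2. Of its 28 tested genes, 12 were called higher, Cdk6 and Cdk7 among them, and 3 lower (42.9% and 10.7%, near the 35.9% and 6.48% of all tested genes). Of the tested genes, 4 had passed the filter only through cKO, E2f8 and Cdk6 among them. Ccnd1, cyclin D1 of the G1 phase, stood at 4.53 and 4.67 RPKM in WT and at 11.8 and 13.1 RPKM in cKO (log2 fold change 1.26, limma adjusted p = 0.000943). E2f8 and E2f6, both E2F factors that act as repressors, stood at 0.459 and 0.587 and at 8.19 and 7.83 RPKM in WT, and at 2.46 and 2.85 and at 16.0 and 18.8 RPKM in cKO. Their log2 fold changes were 1.26 and 1.03 (limma adjusted p = 0.00150 and 0.00194). E2f1, an activator of replication genes, was instead lower, at 6.63 and 6.61 RPKM in WT and 3.66 and 3.19 RPKM in cKO (log2 fold change -0.79, limma adjusted p = 0.00589), as were Tfdp2, a partner of E2F factors, and Ccnd3, another D-type cyclin, with log2 fold changes of -0.78 and -0.54. These last 3 genes were named after their values were seen. The calls of E2f1, Ccnd1, and E2f6 held without any single library and under each rescaling, whereas those of Tfdp2 (adjusted p = 0.0906) and Ccnd3 (0.0508) ended without WT replicate 2, and that of Ccnd3 also without WT replicate 1 (0.101). Without WT replicates 1 and 2 in turn, 6 and 6 genes of the list were called higher (21.4%, against 21.6% and 21.3% of all tested genes) and 2 and 1 lower, and after rescaling 4 or 5 were called higher (14.3% to 17.9%, against 14.8% to 16.8%) and 5 lower (17.9%, against 14.2% to 16.2%).

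Of the CDK inhibitors, which halt the cycle, 5 of 6 were tested, 1 was called higher, and 1 lower (20% each, against 35.9% and 6.48% of all tested genes). Cdkn2b, the inhibitor of Cdk4 and Cdk6, stood at 0.274 and 0.314 RPKM in WT and at 1.63 and 3.13 RPKM in cKO, so that it passed the filter only through cKO (log2 fold change 1.35, limma adjusted p = 0.00370). Cdkn1b, encoding p27, stood at 12.4 and 14.3 RPKM in WT and at 9.43 and 8.71 RPKM in cKO (log2 fold change -0.51, limma adjusted p = 0.0227, and 0.0623 without WT replicate 1 and 0.215 without WT replicate 2). Cdkn1c, encoding p57, was more abundant than any member, at 146 and 165 RPKM in WT and 189 and 205 RPKM in cKO, and was not called (log2 fold change 0.34, limma adjusted p = 0.0633, and 0.0355 without cKO replicate 1).

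Markers of other cell types moved with the groups. Markers of FAPs were present in all libraries, with sums of 7396 and 7462 RPKM over 9 genes in WT and of 5682 and 5627 RPKM in cKO, and 6 of 9 were called lower and 0 higher. Most of these sums came from Gsn, with means of 3486 RPKM in WT and 1403 RPKM in cKO, and Dcn, with means of 2615 and 3046 RPKM. Dcn had both cKO libraries above both WT libraries, and Cxcl14 and Col15a1 had overlapping groups. These last 3 were not called. Sums were higher in cKO for chondrocyte markers (24.1 to 30.3 RPKM in WT and 1788 to 2026 RPKM in cKO, 8 of 8 called higher, led by Col2a1), for tenocyte markers (168 to 180 RPKM in WT and 1206 to 1381 RPKM in cKO, 5 of 5), and for smooth muscle and pericyte markers (50.6 to 72.0 RPKM in WT and 320 to 420 RPKM in cKO, 6 of 7). Those of Schwann cells (23.7 to 27.3 RPKM in WT and 43.4 to 50.2 RPKM in cKO, 3 of 4 tested called higher) and of endothelial cells (28.9 to 31.3 RPKM in WT and 35.3 to 36.9 RPKM in cKO, 2 of 6) were low. The endothelial markers did not move together. Cdh5 and Esam were called higher, Tek, Emcn, and Cldn5 had overlapping groups, and Pecam1 and Kdr had both cKO libraries below both WT libraries. Erbb3 of the Schwann list was also placed below WT, and none of these last markers was called. Hematopoietic markers summed to 5.13 to 10.2 RPKM, with Ptprc at most 0.254 RPKM, and of 2 tested 1 was called higher. Muscle stem cell and myoblast markers summed to 14.0 to 17.3 RPKM in WT and 33.9 to 46.9 RPKM in cKO, of which Itga7 made up most and was the only 1 of 3 tested that was called, while Pax7 and Myf5 were at most 0.0988 and 0.164 RPKM. Erythroid markers summed to 20.4 to 60.7 RPKM in WT and 45.1 to 57.8 RPKM in cKO, with 0 of 3 tested called, and were lowest in WT replicate 1, which was also the lowest library for most members. The part of these cell types, and of the libraries' differences, in the levels of the replication and mitosis genes was not tested.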

How the data were processed

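The deposited file is 1 table in which the authors gave an RPKM per RefSeq gene for each of 4 libraries. TopHat2 (version 2.0.9), bedtools, edgeR, mm9, and mm10 are named in the submitters' processing notes, without their roles. The annotation, the counting rule, and the use of strand are not given in the sources used here, so reads of overlapping genes cannot be told apart. Because RPKM is relative to the library total, abundant genes that change move all others. Genes without reads stood at a small value taken as 0.4 read, which 1110 genes held in every library. Of 1022 low values, 73.7% lay on whole steps within 0.02 of a step, too few to recover reads, and count models were therefore left out. Values identical to another gene were held by 1033 genes, 0 of them members. The number of genes at 1 RPKM or more ranged from 10472 to 11195. The RPKM of Bap1 spans the whole transcript and does not check the genotypes.

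The log2(RPKM + 1) values of 11197 genes with at least 1 RPKM in 2 libraries were fitted in R (version 4.3.3) by lmFit and eBayes(trend = TRUE) of limma (version 3.58.1). Tests were two-sided for cKO minus WT, and p-values were adjusted by Benjamini and Hochberg's method. The pipeline was tested on simulated data. Alternatives were pseudocounts of 0.1 and 0.5, filters at 0 and at 5 RPKM, scaling by median ratios, quantiles, or cyclic loess, eBayes with no trend or with robust estimation, a block for the replicate number, omission of each library, an adjusted p limit of 1e-05 (the limit in the paper), and a minimum fold of 2. The members and lists were chosen with earlier results of these data known. Values in every library were given for Mcm2, Pcna, Cdk1, Ccnb1, Mki67, and Top2a, and, in each class, for the 6 genes with the smallest p, the 2 with the highest mean, and all that failed the filter, and of each other list the 3 genes with the smallest p were named. Gene positions and promoters are from RefSeq (GRCm38.p6), which matched 19888 of the accessions, and exons were taken from GENCODE. Motif counts used Python (version 3.11.15), and figures matplotlib (version 3.10.9).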

Additional observations from a re-analysis of the deposited data

How the results depend on the processing

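Over 16 alternatives, 0 members were called lower and no call changed direction. Mcm6 was called in 15, Cdt1 and Mcm3 in 14, Top2a in 13, and Mcm5 in 12, but Tpx2 in 2 and Birc5 and Ube2c in 4. For the 17 tested members of those given in full, 188 of 272 values over these alternatives kept their side of the threshold, 82 lost it, and 2 gained it. With a pseudocount of 0.1 the median log2 fold changes were 0.62 for replication and 0.61 for mitosis genes and the difference between both was -0.024 (0.05 as reported), and with 0.5 the replication median was 0.49. Without a filter 10 members (1 of mitosis) were called, and with a filter at 5 RPKM 12 (3 of mitosis). Median-ratio, quantile, and cyclic loess scaling called 1661, 1777, and 1885 genes higher and 1593, 1818, and 1710 lower, against 4016 and 726 as reported, members 5, 5, and 6, replication genes 4, 4, and 4, and mitosis genes 1, 1, and 2, with medians of 0.20, 0.25, and 0.24 for replication and 0.21, 0.23, and 0.28 for mitosis. At the adjusted p limit of 1e-05, 5 genes were higher, 0 lower, and 0 members, replication genes, or mitosis genes were called (limma at an unadjusted p under 0.05: 4762 higher and 978 lower), and with a minimum fold of 2, 879 and 168 genes and 1 member (1 of replication, Mcm6, and 0 of mitosis). Leaving out each library gave 2386 to 4044 genes higher and 390 to 1258 lower, 5 to 22 members, 5 to 13 replication genes, and 0 to 9 mitosis genes higher, medians of 0.43 to 0.51 (replication) and 0.37 to 0.48 (mitosis), and a difference of -0.003 to 0.107. An arm left with 1 library is assumed to vary like the other. The same-numbered libraries were not shown to be pairs, as the correlation of their deviations was -0.30. With the replicate number as a block, 17 members (11 of replication and 6 of mitosis) were called higher and 0 lower, and 3552 genes were higher and 731 lower. With the numbers crossed, a pairing chosen after seeing the data, 30 members and 4807 genes were higher and 1088 lower. Few reads limit 9 members that had under 100 estimated reads in some library.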
